A study of Bos taurus with 47 samples.

Results

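Of the 20526 bovine genes measured, 105 were abundant in cells derived from blastocysts made by in vitro fertilization (IVF) and scarce in the starting cells and in IVF embryos of every stage profiled. They were selected on measured values: a median of at least 100 normalized counts over the libraries of IVF blastocyst-derived cells, and a median of at most 20 in each of 6 other groups, namely fibroblasts, mature (MII) oocytes, and IVF 2-cell embryos, 8-cell embryos, morulae and blastocysts. A normalized count is the authors' read count for a gene after scaling between libraries. As the levels in these 7 groups chose the 105 genes, they are given below as a description, and so is the comparison of IVF derived cells with others. The tests rest on embryos and derived cells from somatic cell nuclear transfer (scNT): an oocyte's own chromosomes are removed and replaced by the nucleus of a body cell. The scNT libraries took no part in the choice, although both methods share the fibroblast and oocyte groups.

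A blastocyst is the embryo stage at which an outer layer, the trophectoderm, encloses a cavity and an inner cell mass. The trophectoderm gives rise to the fetal part of the placenta, and the inner cell mass gives rise to the fetus and to the hypoblast, which lines the yolk sac. When blastocysts attach and spread in culture, cells of any of these layers can grow out and go on to differentiate. Genes that are silent through preimplantation development can therefore be active in such cells. The labels name the cells as blastocyst-derived and give no layer, and how they were grown is not described in the sources at hand.

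The groups compared were all bovine. Fibroblasts came from ear biopsies of a Brahma Spanish bull cross, grown as primary cultures, and per the labels serum-starved fibroblasts were the nuclear donors for scNT. Oocytes were matured in vitro and taken at metaphase II, and IVF used sperm of a Holstein bull. The labels describe embryo culture on a cumulus cell monolayer with serum, and pools of 20 embryos were collected on days 2, 3, 6 and 8 for the 2-cell, 8-cell, morula and blastocyst stages. There were 12 groups of 4 libraries, save that scNT morulae had 3 (replicates 2, 3 and 4). On how many pools were made per stage the labels are at odds, with 4 in the design text and 3 in the extraction protocol, and the library numbers here follow the table. The labels link no replicate to an animal or culture of its own, so p-values describe the spread among libraries, part or all of which may be technical.

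The libraries held 4608099 to 16642362 recovered reads, with 7858754 to 9342097 in IVF derived cells and 7590056 to 10318674 in scNT derived cells. Genes were given by Ensembl identifier. The files do not pair these with names, and 0 of them were found in the reference table (assembly ARS-UCD2.0). The genes are therefore named by identifier, their functions are not given, and the labelled cell types could not be checked against marker genes. As these are bulk samples, a lower level can mean fewer cells of a type or less RNA per cell, which cannot be told apart. Fibroblast replicate 3, IVF 2-cell replicate 3 and IVF 8-cell replicate 2 stood apart from their groups in the level of the 105 genes. Without fibroblast replicate 3 the same rule took 104 genes, every one of them among the 105. Without IVF 2-cell replicate 3 it took the same 105 genes, and without IVF 8-cell replicate 2 it took 108, including the whole 105.

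The 105 genes formed a sharp block in derived cells of both kinds. On the scale of log2(normalized count + 1), their mean level was 8.16 ± 0.30 (SD, n = 4) in IVF derived cells and 7.99 ± 0.25 (SD, n = 4) in scNT derived cells. In scNT embryos, which the rule did not use, the mean was 1.21 ± 0.16 (SD, n = 4) at the 2-cell stage, 1.42 ± 0.18 (SD, n = 4) at the 8-cell stage, 1.74 ± 0.074 (SD, n = 3) in morulae and 2.42 ± 0.11 (SD, n = 4) in blastocysts. IVF embryos gave 1.28 ± 0.19, 1.87 ± 0.47, 1.71 ± 0.21 and 2.43 ± 0.18 (SD, n = 4 each) at the same stages. Fibroblasts gave 1.65 ± 0.34 and oocytes 1.38 ± 0.12 (SD, n = 4 each). The 8 derived-cell libraries lay together far above the others. The rule set this for the IVF and starting-cell libraries, but not for the scNT libraries. Blastocysts were the highest of the remaining groups by either method. Among these remaining groups, neighbours in the order of means differed by less than the larger of their SDs, apart from the gap between blastocysts and the next group.

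**Figure D1:**
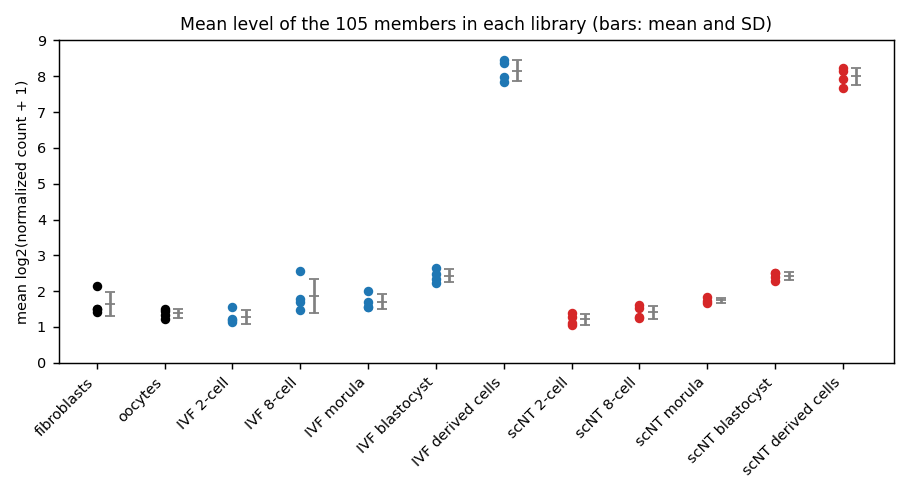
Mean log2(normalized count + 1) over the 105 genes in each library (points), with each group's mean and SD as a grey bar; black marks the starting cells, blue IVF and red scNT. The derived cells sit near 8 and every other library lies below 3, with blastocysts of both methods near 2.4.

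Summed over the 105 genes, the level in the 4 IVF derived-cell libraries was 60056.6 to 86786.4 normalized counts, or 0.679% to 0.939% of a library. The 4 scNT derived-cell libraries gave 47054.4 to 79243.7, or 0.559% to 0.894%, so the ranges of the methods overlapped. In scNT blastocysts the sum was 780.5 to 1229.7, or 0.0072% to 0.0115% of a library. A few genes carried most of the sum in derived cells: the 16 genes with an IVF median of at least 1000 made up 57.4% to 71.0% of it in IVF libraries and 55.4% to 66.1% in scNT libraries.

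**Figure D2:**
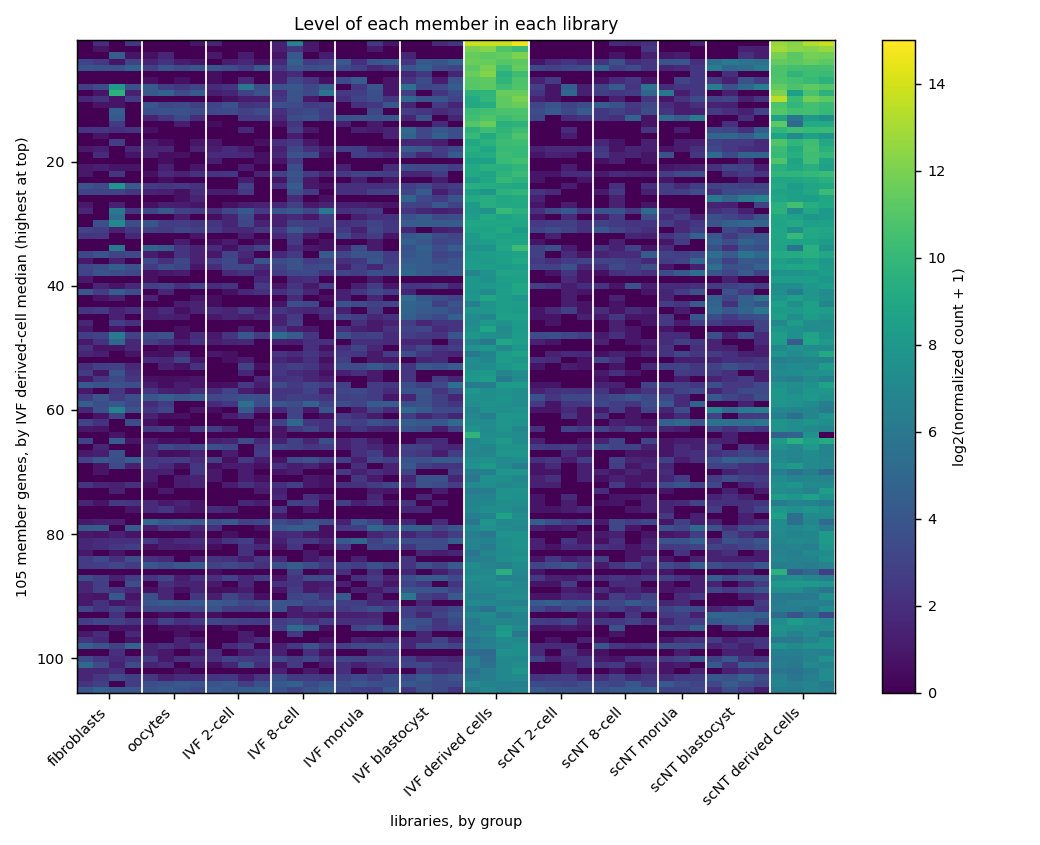
Heat map of log2(normalized count + 1) for the 105 genes (rows, ordered by their median in IVF derived cells) in the 47 libraries (columns, with white lines between groups). Both blocks of derived cells are bright and all embryo and starting-cell blocks are dark, with scattered brighter cells in fibroblast replicate 3, IVF 8-cell replicate 2 and the blastocysts.

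In IVF derived cells the medians of the 105 genes ran from 101.3 to 14329.85 normalized counts, with a median of 196.3. Most lay near the lower limit: 53 had a median of 100 to 200, 24 of 200 to 500, 12 of 500 to 1000 and 16 of 1000 or more. The genes just inside the limit stood at 101.3 and 102.0 and those just outside at 99.3 and 98.1. At the upper limit of 20 for the other groups, the highest medians just inside were 19.95 and 19.7, and those just outside were 20.75 and 20.8. The limits therefore cut through a continuous range of values.

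Absence elsewhere was a matter of degree. In the 6 groups of the rule, 35 of the 105 genes had all medians at or below 5 and 6 had all medians under 1, while 51 had at least 1 median over 10. None had a count of 0 in every library of these groups, and 45 exceeded 20 in at least 1 library. Where a gene had its highest median among the 6 groups, that group was most often IVF blastocysts, for 53 genes, followed by oocytes for 14, 8-cell embryos and fibroblasts for 13 each, morulae for 8 and 2-cell embryos for 2. The other 2 genes had a median of 0 in all 6 groups.

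Single libraries accounted for part of the signal outside derived cells. Fibroblast replicate 3 had a summed level of 2248.5, against 375.6 to 404.9 in the other 3 fibroblast libraries, and 14 of the 105 genes exceeded 20 there while staying at or below 20 in each of the other 3. By count, 41.9% of the 105 genes were higher there than in any other fibroblast library, near the 37.9% found over all 18356 genes with a read in fibroblasts. Without that library 39 genes rather than 45 exceeded 20 somewhere. ENSBTAG00000020676, singled out after its values were seen, stood at 0.0, 0.7, 831.4 and 1.5 in fibroblast replicates 1 to 4. In the derived cells it reached 810.1, 886.3, 2946.1 and 2934.9 by IVF and 4164.5, 346.4, 1671.6 and 802.1 by scNT, so fibroblast replicate 3 alone among the starting-cell libraries lay within the range of derived cells for this gene. In IVF 8-cell replicate 2 the sum was 844.9, against 402.4 to 435.3 in the other 3 libraries of that stage. There 7 genes exceeded 20, all 7 at or below 20 in the other 3 libraries. Of the 105 genes 52.4% were higher there than in any of those, against 30.9% of the 19697 genes with a read at that stage. That library had the fewest recovered reads of its stage, 6413054 against 7596010 to 11306619. In it 1 read was 1.22 normalized counts, against 0.65 to 1.02 in the other 3. The shares compared here and in fibroblasts were not matched for level. What set fibroblast replicate 3 and IVF 8-cell replicate 2 apart was not tested.

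The gene with the highest level, ENSBTAG00000017020, was nearly absent from scNT embryos. It had 14156.8, 14502.9, 13990.3 and 25194.2 normalized counts in the 4 IVF derived-cell libraries and 6638.5, 4865.6, 9958.0 and 13776.3 in the 4 scNT libraries. In scNT blastocysts all 4 libraries had 0, in scNT morulae the values were 0.0, 0.0 and 1.5, and in scNT 2-cell embryos all 4 were 0. A high value outside derived cells was found in IVF 8-cell replicate 2, at 100.3, while the other 8-cell libraries of that method had 1.5, 1.0 and 0.0. This gene made up 20.9% to 29.0% of the summed level in IVF derived cells and 8.38% to 22.4% in scNT derived cells. The second gene by level, ENSBTAG00000013950, had 3953.8, 4876.1, 1854.8 and 1237.7 in IVF derived cells and 7733.8, 5414.1, 4824.5 and 6361.2 in scNT derived cells. In scNT blastocysts it had 0.0, 0.0, 1.5 and 1.3.

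**Figure D3:**
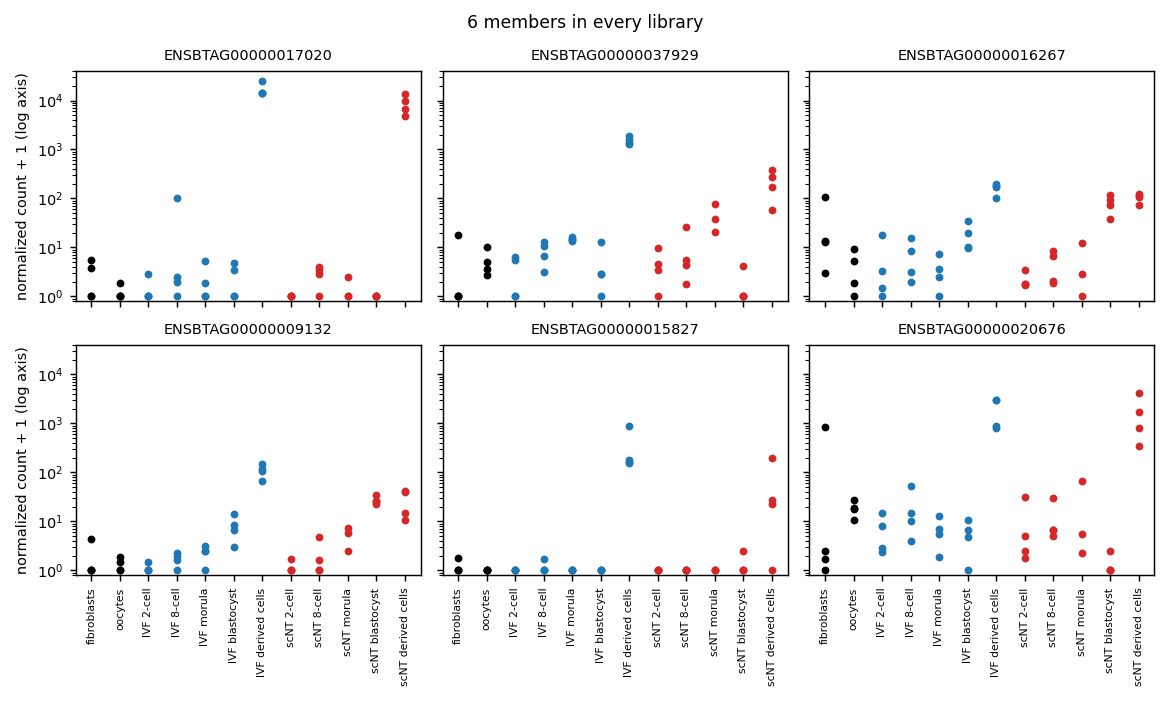
Normalized count + 1 on a log axis for 6 of the genes in each of the 47 libraries, by group; black marks starting cells, blue IVF and red scNT. ENSBTAG00000017020 rises from near 0 to at least 4865.6 in derived cells, ENSBTAG00000016267 and ENSBTAG00000009132 overlap between scNT blastocysts and scNT derived cells, and ENSBTAG00000020676 has a single high fibroblast library.

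Whether the pattern also held for scNT was asked first by levels. All 105 genes had a median above 20 in scNT derived cells, from 23.6 to 8298.25 with a median of 202.55, and 84 reached 100. Of all 20526 genes, 39.5% reached 100 in scNT derived cells. The 21 genes that did not reach it all had IVF medians under 200, and 18 of them stood at 64 or more. In scNT 2-cell and 8-cell embryos 0 of the 105 genes had a median above 20, in scNT morulae 2 did, at 23.5 and 37.6, and in scNT blastocysts 13 did, at 22.25 to 81.75.

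Applying the rule with scNT groups in place of IVF groups took 98 genes. The 2 lists shared 71, which is 67.6% of the 105 genes and 72.4% of the scNT list, and both lists used the same fibroblast and oocyte libraries. Of the 34 genes that the scNT rule left out, 21 were under 100 in scNT derived cells, 13 were above 20 in scNT blastocysts and 2 were above 20 in scNT morulae, with 2 genes out on more than 1 count. The share on both lists was 30 of 53 among genes with an IVF median of 100 to 200, 20 of 24 from 200 to 500, 10 of 12 from 500 to 1000 and 11 of 16 from 1000 up. Of the 27 genes on the scNT list alone, 15 were under 100 in IVF derived cells and 14 were above 20 in an IVF embryo group, 9 of them in IVF blastocysts. Their scNT derived-cell medians ran from 103.55 to 2776.45, and the lowest of their IVF derived-cell medians was 0.55.

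**Figure D4:**
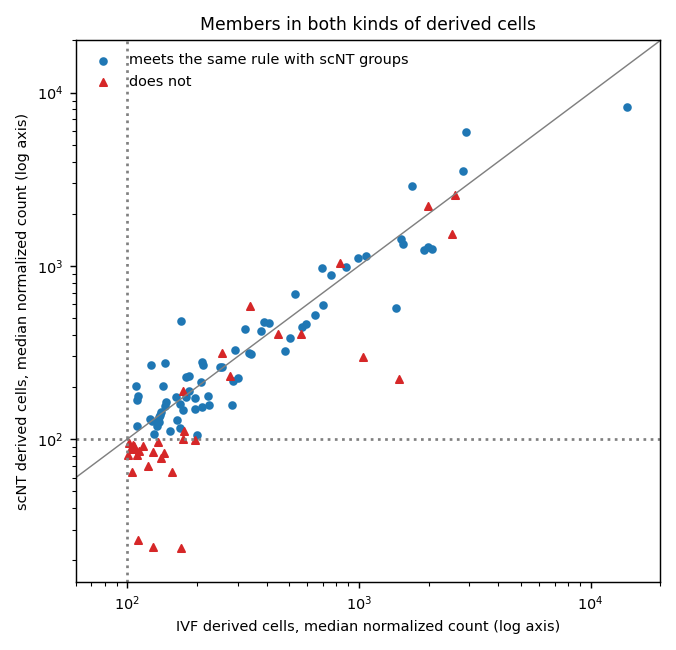
Median normalized count of each of the 105 genes in IVF derived cells (x) and scNT derived cells (y), both on log axes, with the line of equal levels and dotted lines at 100. Blue points (71) meet the same rule in scNT groups and red triangles (34) do not. Points lie on both sides of the line at each level, with 5 of 16 above it from an IVF median of 1000 up. On the y axis 21 triangles lie below 100.

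The step from scNT blastocysts to scNT derived cells tests the rise in libraries that did not choose the genes. The groups did not overlap for 102 of the 105 genes: every derived-cell library was above every scNT blastocyst library. This held for 21.1% of all 20526 genes. Against all scNT embryo libraries from 2-cell to blastocyst it held for 101 of the 105 genes and for 10.6% of all genes. By limma, 103 of the 105 genes passed the filter on low values, and 101 were higher in derived cells at an adjusted p under 0.05 while 0 were lower. Across all 12786 genes tested, 32.9% were called higher. As 78 of the 105 had a median of 10 or lower in scNT blastocysts, most passed the filter through derived cells and had to differ, so the 101 calls are a count and no support for the rise. With no filter all 105 were tested and 103 were called. The median difference was 5.52 on the log2 scale among the 103 genes, against -0.03 over all genes tested. The filter bears on this median as well. With no filter it was 5.415 over the 105 genes, against -0.147 over all genes. With libraries scaled to equal totals, the split of all calls moved from 4207 higher and 4364 lower to 5290 and 3117, the median of all genes became 0.26 and the count of 101 stayed.

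The size of the rise varied widely. Of the 101 genes called, 7 differed by less than 3 on the log2 scale, 36 by 3 to 5, 39 by 5 to 7 and 19 by 7 or more. ENSBTAG00000017020 differed by 12.99 on that scale (SE 0.29) and ENSBTAG00000013950 by 11.92 (SE 0.33). Both passed the filter through derived cells alone, so these differences are given with no test. The fitted values depend on the 1 added before taking logs. For 2 genes all 4 scNT blastocyst libraries had a count of 0. Taking 3 reads per library as the most that a 0 allows, which is a mean of 4.51 normalized counts, they were at least 26.8-fold and, for ENSBTAG00000017020, at least 1955-fold higher in derived cells.

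The 2 genes tested but not called at this step were already present in scNT blastocysts. For ENSBTAG00000016267 the scNT blastocyst libraries had 117.7, 37.2, 72.0 and 91.5 normalized counts and the scNT derived-cell libraries 120.3, 106.6, 117.5 and 73.4. The groups overlapped and differed by 0.48 on the log2 scale (SE 0.32, adjusted p = 0.212). For ENSBTAG00000009132 the blastocyst values were 33.1, 24.8, 21.5 and 24.1 and the derived-cell values 38.7, 13.8, 41.1 and 9.5. The derived-cell values lay on both sides of the blastocyst values, with a difference of -0.23 (SE 0.46, adjusted p = 0.668) whose sign changed with the scaling, to 0.04 with equal library totals. In the IVF groups of the rule, the same genes had blastocyst values of 33.5, 18.4, 8.9 and 9.4, and of 5.6, 2.0, 7.6 and 13.1, against derived-cell values of 103.5, 181.9, 171.3 and 192.2, and of 117.0, 143.9, 65.6 and 106.5. The other 2 genes, ENSBTAG00000015827 and ENSBTAG00000015059, did not pass the filter, as an scNT derived-cell library and all scNT blastocyst libraries were below 10.

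Some of the genes were already detectable before derivation, as 13 had a median above 20 in scNT blastocysts. Between scNT morulae and scNT blastocysts, 31 of the 105 genes passed the filter, 21 were called higher in blastocysts and 1 lower. Over all 13236 genes tested 21.6% were called higher and 26.1% lower. Of the 31 genes, 23 met the filter through blastocysts alone, and 17 had no morula library at 10 or more. These had to come out higher in blastocysts, so the count of 21 is no support for a rise. The 74 genes not tested had medians of at most 16.0 in morulae and at most 9.65 in blastocysts. The median difference of the 31 genes was 2.19 on the log2 scale, against -0.09 over all genes tested, and with no filter it was 0.45 over 104 genes, against -0.12. With equal library totals the count was 16 higher and 1 lower, with all calls at 1510 higher and 5693 lower in place of 2855 and 3460 and the median of all genes at -0.49. Among all 105 genes the median was higher in scNT blastocysts than in scNT morulae for 65, lower for 30 and equal for 10.

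The 13 genes with an scNT blastocyst median above 20 had scNT morula medians of 0.0 to 23.5, a description, since they were picked for their blastocyst level. For 11 of the 13, IVF blastocysts were also the highest of the 6 groups of the rule, with medians of 6.25 to 19.7 over the 13. At the step to derived cells 11 of the 13 were called higher, where 32.9% of all 12786 genes tested were. This count is a description too, as the blastocyst libraries that picked the 13 genes enter the fit. The scNT derived-cell medians of the 13 genes reached up to 2572.35. The largest difference between scNT morulae and blastocysts belonged to ENSBTAG00000017166. It had 0 in all 3 morula libraries, 64.6, 29.4, 61.3 and 104.2 in scNT blastocysts and 445.8, 359.2, 321.9 and 470.2 in scNT derived cells. The groups did not overlap at either step. The difference was 5.91 (SE 0.51) at the first, given with no test, and 2.72 (SE 0.32, adjusted p = 2.03e-05) at the second. ENSBTAG00000016267 had 1.9, 11.2 and 0.0 in morulae, all below the blastocyst values above, with a difference of 4.50 (SE 0.79), again given with no test.

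The 1 gene called lower in scNT blastocysts than in morulae was ENSBTAG00000037929. It met the filter through morulae alone. It had 37.6, 19.9 and 75.6 in scNT morulae and 0.0, 0.0, 3.1 and 0.0 in scNT blastocysts, without overlap. The difference was -4.80 on the log2 scale (SE 0.74), given with no test. A second gene was called lower without morula replicate 3, and 4 genes with no filter. ENSBTAG00000037929 then stood at 382.3, 57.0, 277.2 and 168.8 in scNT derived cells, of which replicate 2 lay below the highest morula library. The difference from blastocysts was 6.98 (SE 0.64), again given with no test, as the filter was met through derived cells alone. In IVF morulae it had 13.9, 13.4, 12.8 and 15.4, and in IVF blastocysts 1.9, 12.2, 0.0 and 1.9.

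Differences between scNT and IVF derived cells varied in size among the 105 genes. The IVF libraries chose the genes, which favours lower scNT values, so this comparison is a description and no p-value is given for a gene. All 105 passed the filter, since the rule set their IVF level. In the fit over all 12390 genes, in which 0.638% passed the threshold as higher and 0.702% as lower, 2 of the 105 were on the higher side and 2 on the lower, and nothing is read from these counts. By size, 94 of the 105 differed by less than 2-fold and 11 by more. The matching share over all genes was not worked out, so nothing is read from this split. The median SE of a difference was 0.33 on the log2 scale. The median difference was -0.09, with 60 genes lower in scNT and 45 higher, and leaving out IVF replicate 3 or scNT replicate 2 turned this median to 0.05 or 0.03. By IVF level, 18 of 53 genes with a median of 100 to 200 had the higher median in scNT, as did 12 of 24, 6 of 12 and 5 of 16 in the bands from 200, 500 and 1000.

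Values are given for 4 genes, ENSBTAG00000005353, ENSBTAG00000000161, ENSBTAG00000037929 and ENSBTAG00000009132. They were picked by the threshold in a fit that used the IVF libraries, which also chose the gene set. Their values are therefore a description and no test. ENSBTAG00000005353 had 290.3, 325.8, 350.0 and 391.3 in IVF derived cells and 585.0, 588.0, 677.8 and 493.1 in scNT derived cells, without overlap, a difference of 0.79 (SE 0.14). ENSBTAG00000000161 had 120.4, 129.9, 204.1 and 122.7 by IVF and 253.4, 279.3, 280.8 and 229.8 by scNT, without overlap, a difference of 0.88 (SE 0.19). Both were thus higher in every scNT library than in any IVF library.

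The 2 lower genes were named above for their course in embryos. ENSBTAG00000037929 had 1377.2, 1844.1, 1265.8 and 1595.4 in IVF derived cells, all above its scNT values, a difference of -3.06 (SE 0.49). ENSBTAG00000009132 had its lowest IVF library, at 65.6, above its highest scNT library, at 41.1, a difference of -2.22 (SE 0.46). None of the 4 genes passed the threshold in all 8 fits that left out 1 library. Nothing is read from which of them passed, as the IVF libraries chose the genes.

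Differences of similar or larger size were found among other genes of the set. ENSBTAG00000018235 had 121.5, 184.7, 290.8 and 155.1 by IVF and 280.9, 777.2, 350.1 and 609.4 by scNT, with a difference of 1.38 (SE 0.36). ENSBTAG00000013950, described above, differed by 1.21 (SE 0.40), and ENSBTAG00000017020 by -1.01 (SE 0.32). ENSBTAG00000015827 had 887.8, 165.2, 175.5 and 151.7 by IVF and 21.5, 25.7, 198.5 and 0.0 by scNT. Its scNT libraries spanned from no read to a level within the IVF range, and the difference of -3.75 came with an SE of 1.36. ENSBTAG00000015059, singled out after its values were seen, had 115.9, 131.8, 677.8 and 127.4 by IVF and 767.1, 17.5, 30.5 and 5.7 by scNT. It was thus high in 1 library of each method, with a difference of -2.20 (SE 1.28).

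Variation between libraries of the same group was large for these genes. The SD of log2(normalized count + 1) over the 4 IVF derived-cell libraries had a median of 0.54 among the 105 genes, against 0.21 among all 8231 genes with a median of at least 100 there. In scNT derived cells the 84 genes that reached 100 had a median SD of 0.42, against 0.22 among all 8118 such genes. Values spanned over 2-fold for 57.1% of the 105 genes in IVF derived cells, against 10.7% of all genes, and for 46.4% of the 84 genes in scNT derived cells, against 11.9%. The gap held at each level. In scNT derived cells the median SDs of these genes and of all genes were 0.44 and 0.26 at 100 to 200, 0.44 and 0.22 at 200 to 500, and 0.40 and 0.20 from 500 up. In IVF derived cells they were 0.55 and 0.26, 0.44 and 0.21, and 0.62 and 0.18.

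**Figure D5:**
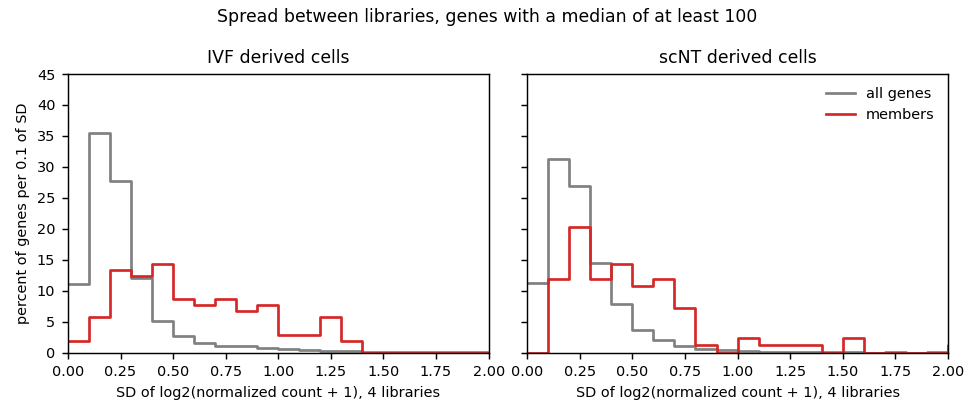
Distribution of the SD of log2(normalized count + 1) over the 4 libraries of IVF (left) and scNT (right) derived cells, in percent of genes per bin of 0.1, for genes with a median of at least 100; grey is all genes and red is the genes described here. The red lines lie to the right of the grey ones, with median SDs of 0.54 against 0.21 (IVF) and 0.42 against 0.22 (scNT).

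The libraries did not vary as one block. In IVF derived cells replicate 1 had the lowest value for 47.6% of the 105 genes, against 26.3% of all genes with a median of at least 100, and replicate 4 had the highest for 37.1%, against 24.8%. In scNT derived cells replicate 2 was lowest for 40.0%, against 40.1% of all genes, and replicate 1 was highest for 33.3%, against 22.9%. No more than 4 of the 105 genes were at or below 20 in any scNT derived-cell library, 3 of them in replicate 2 and 3 in replicate 4. The mean level over the 105 genes ran from 7.68 to 8.23 on the log2 scale in scNT derived cells. In IVF derived cells it was 7.83, 7.99, 8.38 and 8.44 in replicates 1 to 4, so replicates 1 and 2 lay below 3 and 4. For genes named above this split went either way. ENSBTAG00000020676 was higher in replicates 3 and 4, and ENSBTAG00000013950 in replicates 1 and 2. What set these libraries apart was not tested.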

How the data were processed

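Per the labels' protocols, libraries were built from the RNA fraction above 200 nt using a low-input kit and repeated PCR; no use of molecular identifiers is stated, so depth covers counting error only. The submitters' processing notes name FastQC, MultiQC, STAR, DESeq2 and build UMD3.1; their roles, versions, the annotation and the counting step are not named there. The authors deposited 1 signal value per gene and library, a normalized count with 1 decimal. Within a library, values were whole multiples of a step: with a tolerance of 0.05, at least 99.9% came out as whole reads, where chance would give 21.4% or less. The step of fibroblast replicate 1 could not be told from rounding, and no count test used it. No 2 libraries of a group agreed within sampling noise (lowest chi-square per degree of freedom 6.67). Over all genes, fibroblast replicate 3 gave 303.0 to 381.8 against the others, where other fibroblast pairs gave 20.4 to 49.9. IVF 2-cell replicate 3 gave 157.2 to 261.6, where other pairs of that stage gave 31.0 to 51.2. In IVF derived cells replicates 1 and 2 gave 24.3 and replicates 3 and 4 gave 17.7, against 29.55 to 37.6 for the other pairs. All columns were mapped by title (0 left over).

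The filter kept genes at 10 or more in 4 libraries (3 where scNT morulae were compared). They were tested with limma 3.58.1 (trend, robust) in R 4.3.3 on log2(value + 1), 2 groups at a time, two-sided, with Benjamini-Hochberg adjustment over all genes tested and calls at an adjusted p under 0.05. This scale understates changes of low genes. Alternatives covered pseudocount, filter, scaling, a replicate block, leaving out each library, and edgeR 4.0.16 and DESeq2 1.42.0 on the recovered reads. The genes and lists were chosen with earlier results of these data known. Without symbols, the naming rule took at most 2 identifiers per direction and comparison, ordered by level in IVF derived cells, by the scNT minus IVF difference or by scNT blastocyst level; the genes called between the kinds of derived cells and 2 genes with unequal libraries were added after their values were seen. The 19 gene lists and the cell type markers could not be matched. A search for genes of like pattern was not made, as the libraries fall into separate clusters.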

Additional observations from a re-analysis of the deposited data

Results flagged for a closer look

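In 46 sets of 4 libraries (the mean and summed level of the genes in each group, and the named genes in derived cells), the gap of the highest or lowest library to its nearest neighbour was divided by the group's range and compared with Dixon's critical value. Chance alone passes this in about 1 of 20 groups. Fibroblast replicate 3 stood apart in both mean level, 2.15 on the log2 scale, and summed level, 2248.5 normalized counts. IVF 2-cell replicate 3 did so as well, at 1.56 and 430.6, and IVF 8-cell replicate 2 in its summed level, 844.9. Among single genes, ENSBTAG00000017020 stood apart in IVF derived-cell replicate 4, at 25194.2. ENSBTAG00000000161 did in IVF derived-cell replicate 3, at 204.1. ENSBTAG00000015827 did in both kinds of derived cells, at 887.8 in IVF replicate 1 and 198.5 in scNT replicate 3. ENSBTAG00000015059 also did in both, at 677.8 in IVF replicate 3 and 767.1 in scNT replicate 1. ENSBTAG00000015059 and ENSBTAG00000000161 were named after their values were seen, so the rate of about 1 of 20 does not apply to them.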

How the results depend on the processing

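The choice of genes depended on its limits. Asking every library rather than the median to meet them left 37 of the 105 genes, limits of 200 and 10 left 24, and limits of 50 and 40 took 317; the scNT list went from 98 to 45, 34 and 277. Means in place of medians took 100 genes, of which 93 were shared, and leaving out a library took 94 to 118. The count of 101 genes higher in scNT derived cells than in scNT blastocysts was 101 to 103 under every alternative run, with 0 lower. In that comparison ENSBTAG00000009132 changed sign with equal library totals (0.04) and DESeq2 (0.02), and ran from -0.53 to 0.13 over the fits that left out a library. Between scNT blastocysts and morulae the fits without a library called 14 to 20 genes higher and 1 to 2 lower, and no filter gave 24 and 4. Between the kinds of derived cells, genes higher in scNT numbered 1 with a pseudocount of 0.5, equal totals or edgeR, 5 with DESeq2 and 0 to 1 with a library left out; genes lower numbered 1 with no filter, 5 with DESeq2 and 0 to 2 with a library left out. Nothing is read from counts of these genes between derived cells, as the IVF libraries chose the genes. In that comparison ENSBTAG00000020676 ran from -1.03 to 0.17, the latter without scNT replicate 2. Over all genes edgeR called 68 higher and 81 lower and DESeq2 219 and 236, in place of 79 and 87. The cause of these shifts was not tested. Same-numbered libraries deviated together at r of -0.051 to 0.136 between scNT derived cells and scNT blastocysts. Between scNT blastocysts and morulae r was -0.316 to -0.129. Between the kinds of derived cells it was 0.013 to 0.489, against -0.377 to 0.25 for differently numbered libraries. The labels give no pairing, so the main fits used none, and whether same-numbered derived-cell libraries share a source was not tested. A replicate block gave 101 genes higher for derived cells against blastocysts, 14 higher and 1 lower for blastocysts against morulae (all genes 1708 and 2068) and 3 higher and 2 lower between derived cells (all genes 149 and 153). Groups of 3 or 4 libraries limit all of these counts, and in embryos most of the genes lie at a few reads, where differences were not detectable.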
